A study of Nannospalax ehrenbergi and Mus musculus with 14 samples.

Results

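The miR-21 hairpin yields a 5p arm, miR-21a-5p, which is the guide strand, and a 3p arm, miR-21a-3p, which is the passenger strand. Both were taken by name from the deposited microRNA tables, where they are 2 of 1326 names, and both passed the filter on low values in *Spalax* and in mice. Small RNA was sequenced in 14 libraries of animals given a single injection of 3-methylcholanthrene (3MCA), a chemical carcinogen, at 1 mg for *Spalax* (*Nannospalax ehrenbergi*, the blind mole rat) and 200 µg for mice. Each animal gave tissue of the injected side (IS), where a growth had formed, and of the opposite uninjected side (UIS), so the UIS is tissue of a treated animal and no library of an untreated animal was analysed here. The *Spalax* named spalax_600 and spalax_976 had a granuloma, a benign growth, removed 14 and 16 months from treatment. Those named spalax_2240 and spalax_2230 had a fibrosarcoma, a malignant growth, removed 18 and 30 months from treatment. The mice mouse_512, mouse_1023 and mouse_1019 had a fibrosarcoma removed at 11, 12 and 14 weeks. Both granuloma-bearing *Spalax* and spalax_2240 were female, and spalax_2230 and the mice were male. Ages were given for the study's animals as a whole, about 2 years or at least 10 years for *Spalax* and 3 to 4 months for mice. For the treated *Spalax* the paper estimates a range, from 2 to over 10 years. The column of 1 mouse UIS library is headed M1018H, a number that no labelled animal has. The UIS sample that the labels give mouse_1019 has no column under its own number, and whether M1018H is that sample could not be settled. It was kept as a mouse UIS library without an IS partner.

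In animals a microRNA hairpin is cut by Drosha and Dicer into a short duplex, of which usually the guide strand is kept in an Argonaute protein and pairs with target messenger RNAs, while the passenger strand is mostly degraded. miR-21 is among the microRNAs most often found at a high level in solid tumors, in fibrotic tissue and in activated fibroblasts and macrophages, and its transcription is known to respond to STAT3 and AP-1. Its known targets include Pdcd4, an inhibitor of translation, and Spry1, which restrains growth factor signaling.

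In the mouse genome (GRCm38, GENCODE M21 annotation) the Mir21a hairpin of 92 bases lies at chr11:86584067-86584158 on the minus strand. It is inside exon 12 of Vmp1, a gene of vacuole membrane protein 1 on the same strand, in the 3′ UTR that runs from 86583865 to 86585310. Both sides of its stem are shown because the results turn on the ratio of its arms. Capitals mark the bases that RNAfold paired in the minimum free energy fold of the hairpin, and both lines are the reference sequence of the mouse, 5′ to 3′.

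Mir21a 5p side, chr11:86584118-86584147: GTCGGATAGCTTATCaGACTGaTGTTGaCT

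Mir21a 3p side, chr11:86584078-86584105: GGCAACAgCAGTCGATGGGCTGTCTGAC

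The fold held 38 base pairs and had an energy of -46.2 kcal/mol. The mouse genome also holds the hairpins Mir21b, which lies in an intron of Egfem1 on the same strand (chr3:29636744-29636851, plus strand), and Mir21c, which overlaps no annotated gene (chr8:128278148-128278225, minus strand). They are shown beside Mir21a because their 5p sides could take reads of miR-21a-5p. Capitals mark the 11 bases that the 3 hairpins share.

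Mir21a, chr11:86584118-86584147: gtcggatagcTTATCAGACTGatgttgact

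Mir21b, chr3:29636762-29636791: tatggatagtTTATCAGACTGatatttcca

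Mir21c, chr8:128278185-128278214: gtagcttagcTTATCAGACTGgtacaatct

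The longest stretch shared with Mir21a was 13 bases in Mir21b and 15 bases in Mir21c. Their rows, miR-21b and miR-21c, held 1 to 97 and 1 to 94 reads per library, and miR-21b at most 0.0632% of the reads of miR-21a-5p. The 2 rows were within 3 reads of each other in 14 of 14 libraries, so their reads could not be told apart, and no change of either passed the test in any comparison.

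The libraries held 2034574 to 9574014 reads on microRNAs at the IS and 11446933 to 13982842 at the UIS. A share of reads is a row's percentage of all microRNA reads of its library, and 3 reads, the limit that a count of 0 allows, came to at most 0.000147% of a library. The labels call every sample muscle tissue. A list of 17 muscle microRNAs took 27.7% to 37.3% of the reads at the UIS and 0.00959% to 3.95% at the IS. At the IS 13 of the 17 were at 0 in at least 1 library, and miR-208a-3p was at 0 in all. At the UIS, where the libraries held more reads, 7 of the 17 were at 0 in at least 1 library and miR-1b-5p in all.

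miR-21a-5p was the most abundant microRNA of 6 of the 7 IS libraries. At the IS it took 8.45% of the reads in the granuloma of spalax_600 and 8.94% in that of spalax_976. It took 13.2% in the fibrosarcoma of spalax_2240 and 13.6% in that of spalax_2230. In the mouse fibrosarcomas it took 8.53% in mouse_512, 11.4% in mouse_1023 and 9.99% in mouse_1019. The exception in rank was the granuloma of spalax_976, where it stood at rank 3 behind miR-199a-3p and miR-199b-3p, whose rows hold the same reads in 14 of 14 libraries.

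At the UIS miR-133a-3p, a muscle microRNA, led every library. There miR-21a-5p stood lower than at the IS, at ranks 25 to 44, where 524 to 538 names had reads in *Spalax* and 771 to 881 in mice. Its share was 0.236% and 0.162% in spalax_600 and spalax_976. It was 0.538% and 0.210% in spalax_2240 and spalax_2230. In mice it was 0.136% in mouse_512, 0.245% in mouse_1023 and 0.373% in library M1018H. The IS and UIS libraries did not overlap, and the lowest IS share was 8.45% against a highest UIS share of 0.538%. How many other microRNAs were separated in this way was not counted.

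**Figure D1:**
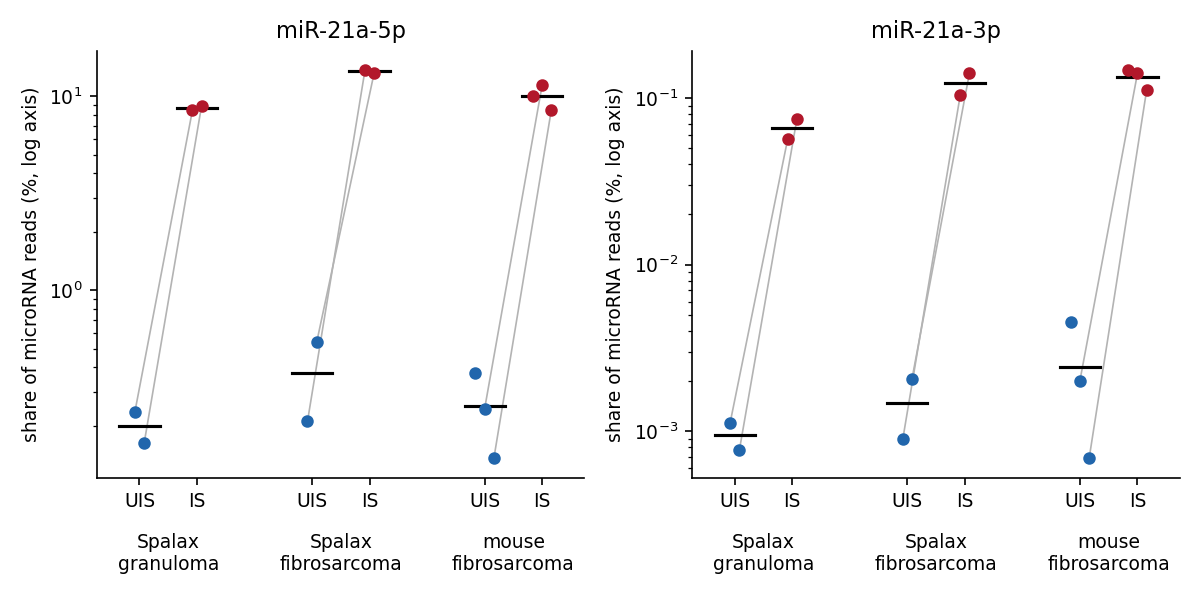
Share of microRNA reads (%, log axis) of miR-21a-5p (left) and miR-21a-3p (right) in each of the 14 libraries. Points are libraries, black bars are means over the 2 or 3 libraries of a side, and grey lines join both sides of an animal; the lowest IS share of miR-21a-5p is 8.45% and the highest UIS share is 0.538%.

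By condition, the mean share of miR-21a-5p at the IS was highest in *Spalax* fibrosarcoma (13.4% ± 0.282, SD, n = 2), followed by mouse fibrosarcoma (9.98% ± 1.46, SD, n = 3) and *Spalax* granuloma (8.69% ± 0.347, SD, n = 2). The mouse libraries overlapped the granulomas, and both *Spalax* fibrosarcomas lay above all other libraries, an order that was not counted for other microRNAs. At the UIS the order was *Spalax* with fibrosarcoma (0.374% ± 0.232, SD, n = 2), mice (0.251% ± 0.119, SD, n = 3) and *Spalax* with granuloma (0.199% ± 0.0523, SD, n = 2), and neighbours in this order differed by less than the spread between libraries.

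Within animals, the share of miR-21a-5p rose from the UIS to the IS in 6 of 6 pairs, by 4.62 to 6.02 on the log2 scale with a mean of 5.52 ± 0.54 (SD, n = 6), which is 45.8-fold. In an exact sign-flip permutation test the two-sided p was 0.03125, the smallest that 6 pairs allow, and it stayed at 0.03125 when adjusted over the 3 such tests of this report. How many other microRNAs rose in all 6 pairs was not counted. With reads scaled to library totals, 85.1%, 83.9% and 93.3% of calls were higher at the IS in granuloma, *Spalax* fibrosarcoma and mice. A share depends on the other microRNAs of the library. Among the reads outside the muscle list, miR-21a-5p took 8.46% to 13.6% at the IS and 0.188% to 0.848% at the UIS, and the mean rise was 4.94 on the log2 scale. In a bulk sample, fewer cells of a type and less RNA per cell cannot be told apart.

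**Figure D2:**
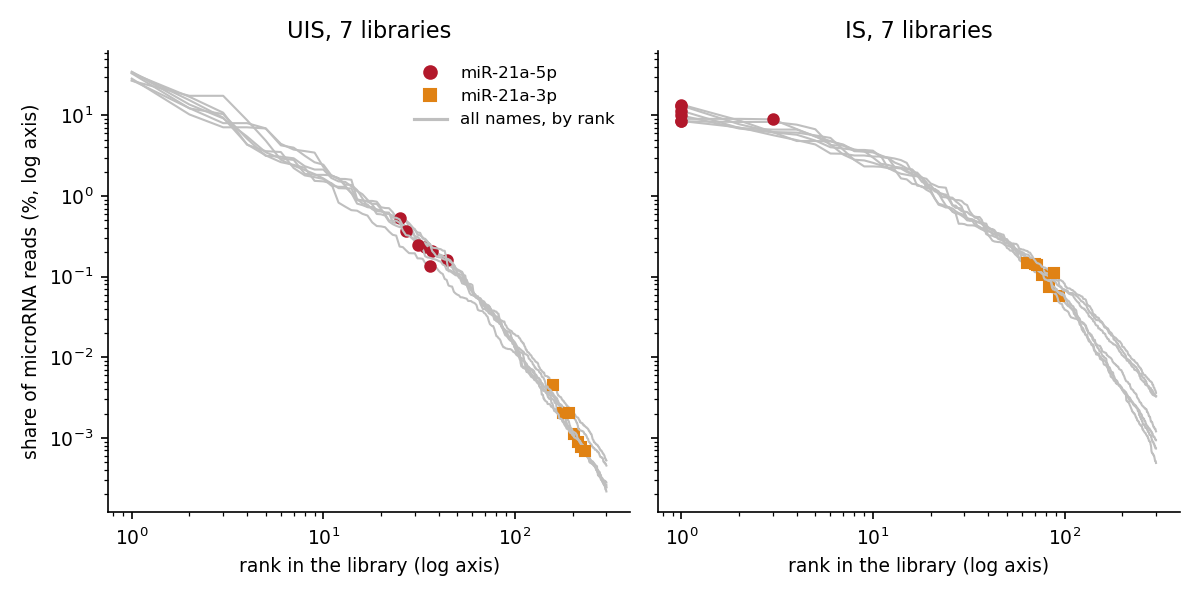
Share of microRNA reads (%, log axis) against rank in the library (log axis) for the 300 most abundant names of each UIS library (left) and IS library (right), grey lines, with miR-21a-5p (circles) and miR-21a-3p (squares) marked. At the IS miR-21a-5p stands at rank 1 in 6 libraries and rank 3 in the other, and at the UIS at ranks 25 to 44.

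On the deposited scale, on which the reads of a library are divided by its size factor, miR-21a-5p had normalized read counts of 376740 and 400220 in the granulomas of spalax_600 and spalax_976. Their UIS had 38630 and 25459. Both IS libraries stood above both UIS libraries. The log2 change, on log2(value + 1) as for all changes here, was 3.63 (SE 0.45), or 12.4-fold, with an adjusted p of 0.00082 in limma. Of the 447 microRNAs tested in *Spalax*, 25.5% were called higher at the granuloma IS and 41.4% had both IS libraries above both UIS libraries.

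In *Spalax* fibrosarcoma the normalized read counts of miR-21a-5p were 583878 in the tumor of spalax_2240 against 75633 on its other side, and 592873 against 29815 in spalax_2230. The fibrosarcomas were close to each other, while the UIS libraries differed from each other. The log2 change was 3.63 (SE 0.45) with an adjusted p of 0.00106 in limma. It was 4.30 without the UIS library of spalax_2240 and 2.96 without that of spalax_2230. Here 15.2% of the 447 microRNAs were called higher at the IS and 32.2% did not overlap between the sides in that direction.

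In mice the normalized read counts were 327326, 466882 and 346866 at the IS of mouse_512, mouse_1023 and mouse_1019, and 36497, 45325 and 57985 at the UIS of mouse_512 and mouse_1023 and in library M1018H. Every IS library lay above every UIS library. The log2 change was 3.04 (SE 0.29), or 8.21-fold, with an adjusted p of 0.000581 in limma. Of the 547 microRNAs tested in mice, 32.2% were called higher at the IS and 36.6% had every IS library above every UIS library.

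These changes were large for a microRNA as abundant as miR-21a-5p, and not among the largest of all. Ordered by log2 change, it stood at rank 35 of 447 in granuloma, 22 of 447 in the *Spalax* tumors and 76 of 547 in the mouse tumors. Among microRNAs with a mean normalized read count of at least 10000, it stood at rank 3 of 62, 4 of 62 and 1 of 60. Its gain in percentage points of reads was the largest of all names in each comparison, namely 8.49, 13.1 and 9.73 in the same order. The next gains were 8.28 for miR-199a-3p, 4.54 for miR-16-5p and 4.12 for miR-199a-3p.

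miR-21a-3p, the passenger strand, had far fewer reads, 2027 to 14089 at the IS and 95 to 520 at the UIS, and moved the same way. At the IS its share was 0.0567% and 0.0749% in the granulomas of spalax_600 and spalax_976. It was 0.142% and 0.104% in the fibrosarcomas of spalax_2240 and spalax_2230. In mouse_512, mouse_1023 and mouse_1019 it was 0.112%, 0.141% and 0.147%. At these shares it stood at ranks 64 to 93 of its library, so the passenger strand of miR-21 was itself among the 100 most abundant names of every IS library.

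At the UIS the share of miR-21a-3p was 0.00112% and 0.000768% in spalax_600 and spalax_976, and 0.00205% and 0.000892% in spalax_2240 and spalax_2230. In mice it was 0.000687% in mouse_512, 0.00201% in mouse_1023 and 0.00454% in library M1018H. The ranks there were 158 to 233, and the sides did not overlap. The 95% Wilson interval of a share, which covers counting error only, had a half-width of at most 20.2% of the share for miR-21a-3p and 1.42% for miR-21a-5p.

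Within animals the share of miR-21a-3p rose in 6 of 6 pairs, by 5.66 to 7.35 on the log2 scale with a mean of 6.45 ± 0.61 (SD, n = 6), and the exact two-sided sign-flip p was 0.03125. As for the guide strand, other microRNAs whose shares separated the sides or rose in every pair were not counted. On the deposited scale the log2 change of miR-21a-3p was 4.28 (SE 0.52) in granuloma, 4.79 (SE 0.52) in *Spalax* fibrosarcoma and 3.78 (SE 0.51) for the mice, with adjusted p of 0.000762, 0.000747 and 0.00212 in limma. It stood at ranks 12, 7 and 26 by log2 change in the 3 comparisons, ahead of the guide strand in each.

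**Figure D3:**
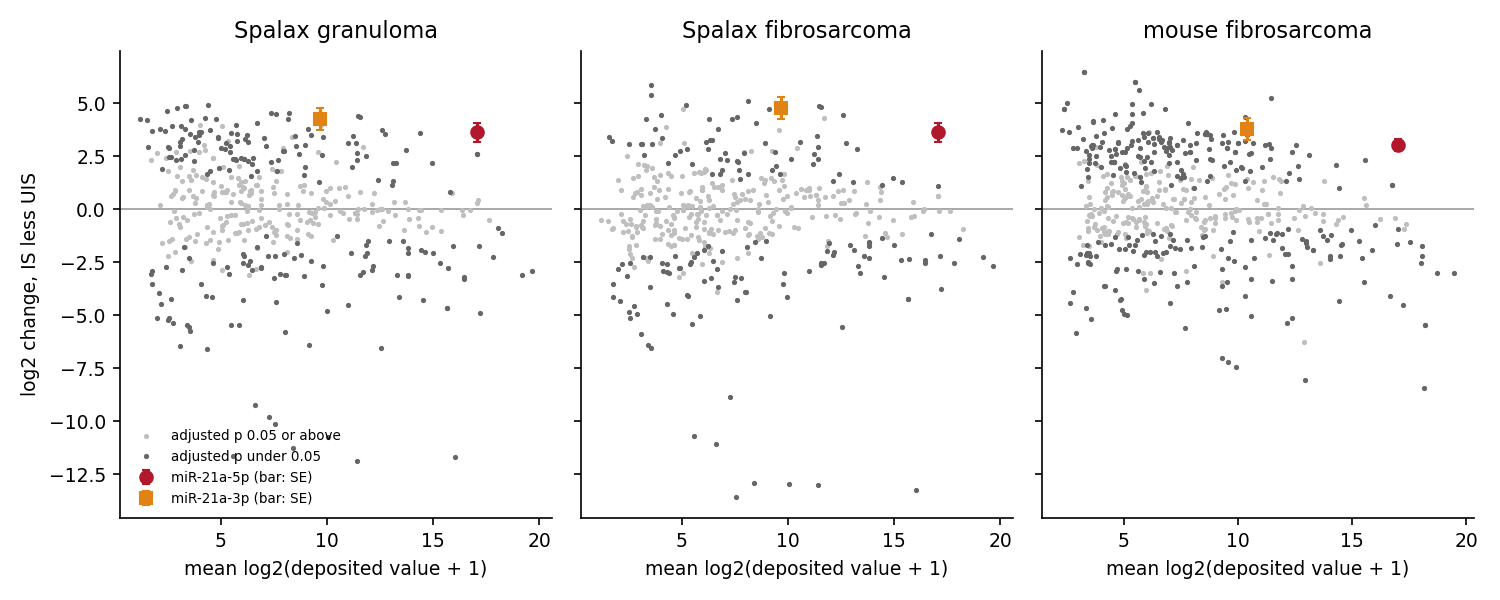
Log2 change from UIS to IS of each microRNA tested against its mean log2(deposited value + 1) over all libraries of the species, for *Spalax* granuloma, *Spalax* fibrosarcoma and mouse fibrosarcoma. Points are microRNAs, dark where the adjusted p is under 0.05; miR-21a-5p (circle) and miR-21a-3p (square) carry bars of 1 SE and lie between 3.04 and 4.79 in all panels.

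The size of these changes depended on how libraries were scaled. With reads scaled to library totals in place of the deposited size factors, the log2 change of miR-21a-5p became 5.47, 5.32 and 5.42 in the same order of comparisons, and that of miR-21a-3p 6.11, 6.48 and 6.15. The median change of all microRNAs moved from 0.13, -0.23 and 0.21 to 2.02, 1.44 and 2.76, and the share of calls that were higher at the IS from 52.8%, 40.7% and 55.7% to 85.1%, 83.9% and 93.3%. With totals that left out the muscle list, the log2 change of miR-21a-5p was 4.82, 4.68 and 4.96, and the share of calls that were higher 78.1%, 73.4% and 90.0%. Relative to the median of all microRNAs the change of miR-21a-5p was 3.50, 3.86 and 2.82 on the deposited scale and 3.45, 3.88 and 2.66 on the scale of totals. All 6 changes of the arms passed the threshold under the 3 scalings.

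Markers of other cell types moved with the sides. The fibroblast list, 6 of 6 names detected, took 5.55% to 20.9% of the reads at the IS and 0.427% to 1.96% at the UIS. Its miR-199a-3p and miR-199b-3p hold the same reads, and with these counted once in the list its 5 distinct rows took 3.22% to 11.8% at the IS and 0.233% to 1.10% at the UIS. The leukocyte list, 7 or 8 of 8 names detected with miR-150-3p at 0 in at least 1 library, took 0.367% to 2.41% at the IS and 0.0616% to 0.109% at the UIS. The other lists overlapped between the sides, with 0.343% to 1.64% at the IS and 0.323% to 1.10% at the UIS for 2 endothelial names, 0.0926% to 0.849% and 0.0539% to 0.544% for 3 red cell names, and 0.00241% to 0.0243% and 0.000493% to 0.0180% for 7 epithelial names. The part of cell makeup in the rise of miR-21 was not tested.

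Granuloma was compared with fibrosarcoma in *Spalax* to ask whether miR-21 differed between benign and malignant growth. The rise of miR-21a-5p did not differ detectably between them, with a difference of changes, granuloma less fibrosarcoma, of -0.00095 (SE 0.63, 95% interval -1.47 to 1.47, adjusted p = 0.999 in limma). That of miR-21a-3p was -0.52 (SE 0.73, 95% interval -2.22 to 1.19, adjusted p = 0.76 in limma). The intervals do not exclude a difference of about 2.77-fold for the guide strand in either direction. The test called 3.80% of the 447 microRNAs, or 17. That count was 0 when any of 6 of the 8 libraries was left out, 35 without the IS library of spalax_976 and 31 without that of spalax_2240. Both fibrosarcomas were removed later after injection than both granulomas, and the only male bore a fibrosarcoma. Diagnosis, time after injection and in part sex therefore cannot be told apart, here or in the direct comparison below.

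Compared directly at the IS, the granulomas had less of both arms than the fibrosarcomas in every library, 376740 and 400220 against 583878 and 592873 normalized read counts for miR-21a-5p and 2530 and 3354 against 6251 and 4545 for miR-21a-3p. How many of the 447 microRNAs were separated between these libraries was not counted. The log2 difference, granuloma less fibrosarcoma, was -0.60 (SE 0.45) for miR-21a-5p and -0.87 (SE 0.52) for miR-21a-3p. Neither passed the threshold, with adjusted p of 0.416 and 0.319 in limma, while 18.8% of the microRNAs did, or 84, and 31 without the IS library of spalax_600. The UIS of the same animals gave -0.60 (SE 0.45) for miR-21a-5p and -0.36 (SE 0.52) for miR-21a-3p, both with an adjusted p of 1. No microRNA was called there in limma (0 of 447, or 0%), edgeR or DESeq2, and 5 had an unadjusted p under 0.05 in limma. The higher level of spalax_2240 carried the UIS value, since without its UIS library the difference of miR-21a-5p was 0.073 and that of miR-21a-3p 0.24.

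Since 5 mouse libraries stand in the *Spalax* table too, under 1 normalization, the changes of fibrosarcoma could be compared between species. The difference, *Spalax* less mouse, was 0.30 (SE 0.55, 95% interval -0.93 to 1.52, adjusted p = 0.731 in limma) for miR-21a-5p and 0.42 (SE 0.65, 95% interval -1.04 to 1.87, adjusted p = 0.678 in limma) for miR-21a-3p. Of 607 microRNAs tested, 26.0% were called. Species, dose, age and time after injection varied together in this comparison and cannot be told apart, and the *Spalax* were 1 female and 1 male while the mice were all male.

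The arm ratio, the reads of miR-21a-3p over those of miR-21a-5p, needs no scaling of libraries. The guide strand led by 67.9 to 149 reads per read of the passenger strand at the IS and by 82.1 to 262 at the UIS. As a percentage of the reads of both arms, miR-21a-3p made up 0.667% and 0.831% in the granulomas of spalax_600 and spalax_976, and 0.475% and 0.472% at their UIS. The percentages were 1.06% and 0.761% in the fibrosarcomas of spalax_2240 and spalax_2230, and 0.380% and 0.422% at their UIS. In *Spalax* every IS library was above every UIS library, and how many other hairpins did the same was not counted.

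In mice miR-21a-3p made up 1.30%, 1.21% and 1.45% of the reads of both arms in the fibrosarcomas of mouse_512, mouse_1023 and mouse_1019. At the UIS it made up 0.503% and 0.814% in mouse_512 and mouse_1023 and 1.20% in library M1018H. Library M1018H stood just below the lowest fibrosarcoma, and its 95% Wilson interval of 1.10% to 1.31% took that value in.

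**Figure D4:**
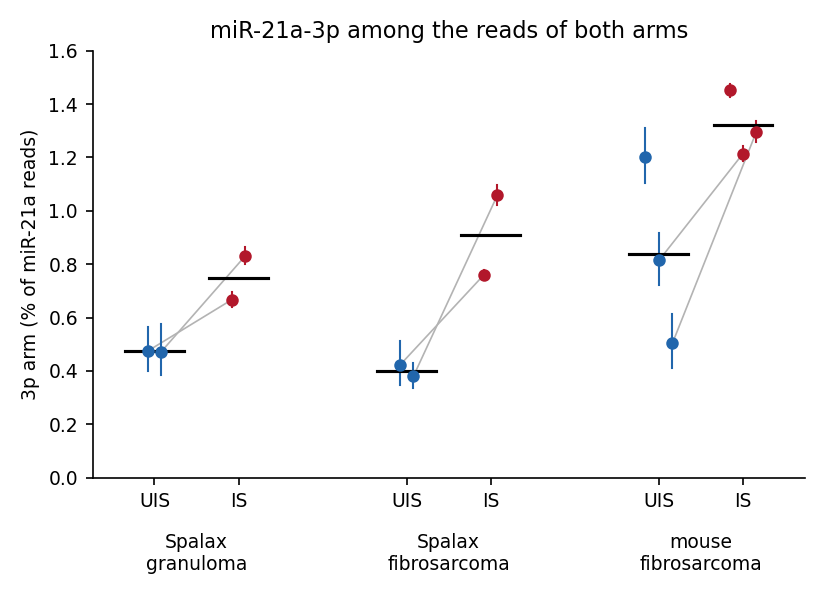
Reads of miR-21a-3p as a percentage of the reads of both arms in each of the 14 libraries. Points are libraries with 95% Wilson intervals, which cover counting error only, black bars are means over the 2 or 3 libraries of a side, and grey lines join both sides of an animal; all 6 lines rise from UIS to IS.

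The ratio rose from the UIS to the IS in 6 of 6 animals, by 0.49 to 1.49 on the log2 scale with a mean of 0.93 ± 0.41 (SD, n = 6), or 1.91-fold, and the exact two-sided sign-flip p was 0.03125. Comparison by comparison the rise did not pass the test adjusted over the 113 hairpins with both arms measured. The log2 change of the ratio was 0.65 (SE 0.37, adjusted p = 0.275) in granuloma, 1.17 (SE 0.37, adjusted p = 0.0572) in *Spalax* fibrosarcoma and 0.74 (SE 0.30, adjusted p = 0.11) for the mice, all in limma. By this change miR-21a stood at ranks 32, 14 and 25 of the 113 hairpins, of which 65, 58 and 59 had a positive change. How many hairpins rose in 6 of 6 animals was not counted. The tests called 7.08%, 15.0% and 23.0% of the hairpins, and with the animal as a replicate block 2, 1 and 11 hairpins in place of 8, 17 and 26. Of 19 other settings, in 14 of which 1 library was left out, the rise passed in 0 in granuloma, 3 in *Spalax* fibrosarcoma and 1 in mice. In mice the adjusted p in limma reached 0.305 among these settings. The 1 that passed was without library M1018H, where the change in mice was 1.05 with an adjusted p of 0.0246 in limma. The change in *Spalax* fibrosarcoma stayed at 1.17 but had an adjusted p of 0.0409 in limma without that library and of 0.0284 without the UIS library of mouse_512, since all libraries share an estimate of the spread. The changes of the ratio in granuloma and in mice did not differ detectably from that in *Spalax* fibrosarcoma, with differences of -0.52 (95% interval -1.67 to 0.64, adjusted p = 0.951 in limma) and -0.43 (95% interval -1.48 to 0.63, adjusted p = 0.782 in limma).

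At the UIS the ratio was higher in mice than in *Spalax*, by 0.86 on the log2 scale (SE 0.28, adjusted p = 0.0374 in limma), or 1.82-fold, where 34.5% of the hairpins were called. This call rested on single libraries. Without library M1018H the difference was 0.56 with an adjusted p of 0.152 in limma. The call was also lost, at adjusted p of 0.0520 to 0.0933 in limma, without the UIS library of spalax_600, spalax_976, spalax_2230, spalax_2240 or mouse_1023, or the IS library of mouse_1019 or mouse_1023. Between the fibrosarcomas of the 2 species the ratio differed by 0.56 (SE 0.34, 95% interval -0.19 to 1.30, adjusted p = 0.312 in limma), mouse less *Spalax*, where 16.8% of the hairpins were called. The paper cautions that its microRNA knowledge came from mouse annotation. UIS libraries had reads on 524 to 538 names in *Spalax* and 771 to 881 in mice. Whether *Spalax* reads match the mouse names less well was not tested. Species, dose, age and time after injection cannot be told apart here, and most of the *Spalax* were female. Averaged over all libraries, miR-21a stood at rank 21 of the 113 hairpins in how unequal its arms were.

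Both arms followed each other across libraries, with a Pearson's r of log2(value + 1) of 0.99 over the 8 *Spalax* libraries and 0.99 over the 6 mouse libraries. These values are a description, since the libraries fall into 2 sides and share their scaling. Among the 399 other microRNAs tested in both species, the 5 most like miR-21a-5p, by the smaller of their r in *Spalax* and in mice, were miR-99b-5p (0.97), miR-222-3p (0.96), miR-221-5p (0.95), miR-542-3p (0.94) and miR-181a-1-3p (0.94). Since the libraries split by side, choosing names in this way fixed that they were higher at the IS. Their log2 changes differed in size, from 1.13, 1.28 and 0.98 for miR-99b-5p to 4.54, 4.24 and 4.08 for miR-542-3p in granuloma, *Spalax* fibrosarcoma and mouse fibrosarcoma.

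MicroRNAs known to respond to NF-kB, STAT3 or AP-1, as miR-21 does, were listed from general knowledge. Counts for this list and those below were made on the deposited scale only. Of 7 tested, 5 rose in granuloma and 5 in *Spalax* fibrosarcoma, while 3 rose and 1 fell in mice, with median changes of 3.54, 3.11 and 1.35 beside medians of 0.13, -0.23 and 0.21 over all microRNAs. Of all microRNAs tested, 25.5%, 15.2% and 32.2% were called higher at the IS in the same order, and 22.8%, 22.1% and 25.6% lower, so the 3 of 7 in mice is near the share of all microRNAs. The highest were miR-222-3p in granuloma (4.36) and miR-147-3p in the fibrosarcomas of *Spalax* (5.85) and mice (4.96). miR-155-5p, a microRNA of activated immune cells, had changes of 2.21, 2.88 and -0.03 and passed in none. The one that fell was miR-181b-5p in mice, by 1.69 on the log2 scale.

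Of 11 other microRNAs known as oncogenic, 4 rose and 1 fell in granuloma, 7 rose and none fell in *Spalax* fibrosarcoma, and 5 rose and 1 fell in mouse fibrosarcoma, with medians of 1.02, 2.38 and 1.61. Beside the 25.5%, 15.2% and 32.2% of all microRNAs called higher, the counts in granuloma and in mice are not far from those of all microRNAs. The highest were miR-222-3p in granuloma and *Spalax* fibrosarcoma (4.36 and 4.81), which restrains the cell cycle inhibitor p27, and miR-31-5p in mice (5.25). miR-10b-5p fell in granuloma and in mice, with log2 changes of -1.12 and -2.20. This list shares 3 names with the list before it or with those of fibrosis, among them miR-222-3p.

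miR-21 is also counted among the microRNAs that promote fibrosis. Of 8 others of that kind, 2 rose and 2 fell in granuloma, none rose and 3 fell in *Spalax* fibrosarcoma, and 3 rose and 3 fell in mice, with medians of 0.60, 0.62 and -0.32. The 2 of 8 that rose in granuloma are near the 25.5% of all microRNAs, and the 2, 3 and 3 that fell stand beside 22.8%, 22.1% and 25.6% of all called lower. The members that rose in granuloma were miR-199a-5p (3.61) and miR-214-3p (3.12), which share a primary transcript, and those that fell were miR-143-3p (-1.74) and miR-145a-5p (-1.67), which mark smooth muscle. Of 9 microRNAs that restrain fibrosis, all 9 fell on the deposited scale in granuloma, 7 in *Spalax* fibrosarcoma and 8 in mice. Their medians were -2.79, -1.75 and -2.21, and 22.8%, 22.1% and 25.6% of all microRNAs were called lower. They included miR-29c-3p, which targets collagens, at -4.52, -2.92 and -4.11, and miR-133a-3p, which is also on the muscle list, at -11.69, -13.24 and -8.44. With reads scaled to library totals the median change of all microRNAs was higher, and these falls were not counted on that scale.

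The cell type lists give the same counts by microRNA, beside 25.5%, 15.2% and 32.2% of all microRNAs called higher and 22.8%, 22.1% and 25.6% called lower in granuloma, *Spalax* fibrosarcoma and mouse fibrosarcoma. All 11 muscle names tested fell in both *Spalax* comparisons and 4 of 8 fell in mice. Of the 6 fibroblast names, which are 5 distinct rows, 6 rose in granuloma and 5 in mice. None passed the test in *Spalax* fibrosarcoma, where their changes on the deposited scale were 0.60 to 1.28 and their summed share of reads was 11.4% and 5.55% at the IS of spalax_2230 and spalax_2240 and 1.21% and 1.96% at the UIS. Of 7 leukocyte names, 4 rose in each comparison, and miR-150-5p, a lymphocyte microRNA, fell in granuloma (-2.05). The 2 names of endothelial miR-126a fell on the deposited scale in all 3 comparisons. Their summed share of reads overlapped between the sides in mice, with 0.343% to 1.64% at the IS and 0.323% to 1.10% at the UIS. It was 0.490% to 0.621% at the IS and 0.786% to 0.842% at the UIS in granuloma. In *Spalax* fibrosarcoma it was 0.395% to 0.743% and 0.784% to 0.993%. The 3 red cell names passed in none of the comparisons, and 1 of 5 epithelial names rose in each *Spalax* comparison while 1 of 4 fell in mice.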

How the data were processed

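The authors trimmed the reads, mapped them with mirDeep and deposited a table per species of a signal per microRNA, the reads of each library over its size factor. The submitters' processing notes also name GRCm38, TopHat 1.4.1, HTSeq and DESeq, without saying for which data. Whole reads were recovered in 100% of the values from the step that 1 read is worth (tolerance 0.01), and gave shares and arm ratios. Names with identical reads count under each name in library totals. Changes of single microRNAs were fitted separately by species, since the tables were normalized separately, except where the 13 libraries of the *Spalax* table were used. The arm ratio was fitted over all 14 libraries of both species.

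Members, lists, tests and alternatives were chosen with earlier results of these data known. limma with a trend in the spread was fitted on log2(value + 1) of microRNAs that reached a value of 10 in 2 or more of the *Spalax* or 3 or more of the mouse libraries, with Benjamini-Hochberg adjustment at 0.05 over all tested. The arm ratio, log2 of (reads of the 3p arm + 0.5) over (reads of the 5p arm + 0.5), was fitted by limma over 113 hairpins in all 14 libraries. Shares and ratios within animals were tested by exact sign flips over 6 pairs from both species. Where all 6 differences have the same sign, the p is 0.03125 whatever their spread. It then reflects only that the animals agreed in direction. Named microRNAs are both arms, relatives (miR-590 had no row in the tables used here), the 5 most alike in log2 value, and members of fixed lists, the highest and lowest change past the threshold; others named with lists were chosen after their values were seen. The pairs are sides of 1 animal; deviations of the sides from their group means correlated at 0.0933 in granuloma, 0.00405 in *Spalax* fibrosarcoma, and -0.107 and 0.122 in mouse_1023 and mouse_512.

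Alternatives were total scaling with and without the muscle list, edgeR on recovered reads with 2 kinds of size factor, DESeq2, a pseudocount of 0.1, no filter, limma without (arm ratio: with) the trend, the animal as a replicate block, other sets of libraries in the fit, and leaving out each library. edgeR with TMM factors called 212, 163 and 311 microRNAs in granuloma, *Spalax* fibrosarcoma and mouse fibrosarcoma, and limma 216, 167 and 316. Reads carry no molecular identifiers, so intervals cover counting error only. The scripts were tested on simulated data. Versions were Python 3.11.15, ViennaRNA 2.7.2, DESeq2 1.42.0, edgeR 4.0.16, limma 3.58.1 and R 4.3.3.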

Additional observations from a re-analysis of the deposited data

How the results depend on the processing

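Both arms rose past the threshold in all 3 comparisons under every alternative, with log2 changes of 3.62 to 5.47, 3.20 to 5.32 and 2.94 to 5.42 for miR-21a-5p and 4.28 to 6.11, 4.41 to 6.48 and 3.50 to 6.15 for miR-21a-3p in granuloma, *Spalax* fibrosarcoma and mouse fibrosarcoma, and when any 1 library was left out. Leaving out 1 library gave 3.33 to 3.93, 2.96 to 4.30 and 2.87 to 3.21 for miR-21a-5p and 3.98 to 4.58, 4.20 to 5.39 and 3.29 to 4.25 for miR-21a-3p, and in *Spalax* fibrosarcoma the highest was without the UIS library of spalax_2240 and the lowest without that of spalax_2230, a move of over 1.5-fold. Under the replicate block by animal, changes of miR-21a-5p were 3.63, 3.63 and 3.26 and those of miR-21a-3p 4.28, 4.79 and 4.24, and the block changed no call of the arms or of their ratio.

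The difference of changes of miR-21a-5p, near 0, turned positive with totals (0.16), totals without the muscle list (0.15), edgeR with TMM factors (0.43), edgeR with DESeq2 factors (0.12) and DESeq2 (0.065). Leaving out 1 library gave -0.67 to 0.67 for it and -1.11 to 0.076 for miR-21a-3p. For *Spalax* less mouse, which was added after seeing the data, it gave -0.37 to 0.97 and -0.18 to 1.01. At the UIS, granuloma less fibrosarcoma, it gave -1.27 to 0.073 and -0.95 to 0.24. None of these passed the threshold.

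The arm ratio in *Spalax* fibrosarcoma (1.17) passed in only 3 of the 19 other settings. These were with a trend in the spread (adjusted p = 0.0377 in limma), and without M1018H or the UIS library of mouse_512 (0.0409 and 0.0284). Leaving out 1 library gave 0.93 to 1.41 in *Spalax* fibrosarcoma and 0.42 to 1.05 in mice. The ratio of mice less *Spalax* at the UIS (0.86) was lost with no filter (adjusted p = 0.0679 in limma), and leaving out 1 library gave 0.56 to 1.19. The cause was not tested. Without 1 animal, the mean rise within animals was 5.42 to 5.70 for miR-21a-5p, 6.27 to 6.61 for miR-21a-3p and 0.82 to 1.02 for the ratio; 5 pairs cannot give an exact p below 0.0625.

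Counts of calls moved more. The difference of changes had 17 calls against 32 with totals, 61 in DESeq2, 5 with the block and 0 with a pseudocount of 0.1 or no filter. *Spalax* less mouse had 158 against 67 and 66 in edgeR. Over 441 unfiltered hairpins the arm ratio had 19, 10, 72, 129 and 134 calls in place of 8, 17, 26, 39 and 19, and with the species apart 5 and 1 in granuloma and *Spalax* fibrosarcoma. Leaving out 1 library gave 128 to 234 calls in granuloma (lowest without the IS library of spalax_600), 76 to 179 in *Spalax* fibrosarcoma (without the UIS library of spalax_2240), 189 to 289 in mice (without the UIS library of mouse_1023), 0 to 35 for the difference of changes, 31 to 87 between granuloma and fibrosarcoma at the IS, 77 to 186 for *Spalax* less mouse (lowest without the UIS library of spalax_2240), and 1 to 11, 0 to 22, 20 to 29, 23 to 40 and 15 to 20 for the arm ratio, so the shares of microRNAs called are less firm than the calls of the arms. Depth limits miR-21a-3p at the UIS most, where a library held 95 to 520 of its reads.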
